A study of Mus musculus with 2 samples.

Results

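The Notch genes described here are 4 receptors (Notch1, Notch2, Notch3 and Notch4), 3 ligands (Jag1, Jag2 and Dll1) and 3 genes that Notch signalling switches on (Hes1, Hey1 and Hey2). They were taken by name: every probe set whose only gene symbol in the platform annotation is 1 of these 10 was used, which gave 18 of the 45037 probe sets other than controls, and 10 of the 18193 genes that have a probe set of their own. RNA came from mouse embryonic fibroblasts (MEFs), mixed mesenchymal cells grown out of dissociated embryos, of strain C57BL/6, embryonic day 12.5 and passage 1 for both cultures. One culture was wild type and the other was homozygous for L307R in Phc2 (genotype Phc2 L307R/L307R), a missense change in the SAM domain. This is the part through which molecules of Phc2, a subunit of Polycomb repressive complex 1, join into polymers. The comparison asks how the 2 genotypes differ in expression. The labels do not say how many embryos went into a culture. Each genotype has 1 Affymetrix array, so no value below has a replicate, no test between the genotypes was possible, no p-value is given, and each difference is one between 2 cultures.

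Notch receptors sit in the cell membrane and are cut when a Jagged or Delta ligand on a neighbouring cell binds and pulls on them. The freed intracellular part enters the nucleus, joins the DNA-binding protein Rbpj and its Mastermind partner, and turns on genes that include the Hes and Hey transcriptional repressors. In mesenchymal cells the pathway is known for holding back cartilage and bone differentiation and for shaping the muscle coat of vessels, and several of its genes are bound by Polycomb complexes in other cell types.

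Promoter sequences from RefSeq (GRCm38.p6), each running from 250 bases before to 50 bases after a transcription start, were held for 8 of the 10 genes, with 9 windows since Dll1 has 2. The entries for Hes1 and Hey1 were missing. Both strands were searched for TGGGAA, the core letters bound by Rbpj, and for CACGTG and CACGCG, which Hes and Hey proteins bind. Only the windows below are shown. They belong to the receptor with the largest ratio, to the ligand with the most probe sets and to the only one of these genes whose window held TGGGAA. Each is the 250 bases before the start, 5′ to 3′ on the gene's strand, and capitals mark a match on either strand that lies wholly within the printed bases.

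Notch1 (chr2:26503823-26504072, minus strand): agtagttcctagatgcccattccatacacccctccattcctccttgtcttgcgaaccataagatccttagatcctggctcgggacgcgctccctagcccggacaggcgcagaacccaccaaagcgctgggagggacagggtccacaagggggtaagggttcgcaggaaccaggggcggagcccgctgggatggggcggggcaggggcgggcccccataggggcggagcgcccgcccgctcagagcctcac
Jag1 (chr2:137116521-137116770, minus strand): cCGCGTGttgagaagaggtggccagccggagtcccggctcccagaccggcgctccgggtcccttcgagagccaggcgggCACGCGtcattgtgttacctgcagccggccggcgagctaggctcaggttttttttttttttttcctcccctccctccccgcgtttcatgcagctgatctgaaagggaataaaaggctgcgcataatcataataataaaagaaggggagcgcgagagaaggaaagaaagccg
Hey2 (chr10:30842784-30843033, minus strand): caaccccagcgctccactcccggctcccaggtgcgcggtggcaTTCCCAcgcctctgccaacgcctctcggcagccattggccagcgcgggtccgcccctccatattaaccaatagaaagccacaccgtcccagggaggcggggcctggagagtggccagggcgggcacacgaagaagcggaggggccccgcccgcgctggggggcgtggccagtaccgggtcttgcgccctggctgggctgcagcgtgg

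TGGGAA was found in 1 of the 9 windows, that of Hey2, against 25.6% of 32851 promoter windows of the same length. Hey2 held it on the opposite strand from 207 bases before the start and again across the start itself, from 3 bases before it. CACGCG was found in 4 of the 9 windows, those of Jag1, Jag2, Dll1 and Notch2, against 9.27% of all. Jag1 held it at 2 places, from 249 and from 171 bases before the start. CACGTG was in none of the 9 and in 7.15% of all. No match overlapped another. The 250 bases upstream were 56% to 87.2% G and C in the 9 windows, with Jag2 the highest, against a median of 52.4% over all promoters. These matches describe letters only and bear on no value below.

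Signals are MAS5 values, 1 linear number per probe set and array. A floor was set at 94.8, the higher of the 2 arrays' median signals (94.8 in wild type and 94.3 in Phc2 L307R). A gene counts as measured where its brightest probe set lies above the floor on at least 1 array, and a lower signal is raised to the floor before the log2 ratio of Phc2 L307R over wild type is taken, so that such a ratio is a bound. Pairs of signals are given with wild type first. The arrays allow only a technical error: the log2 ratios of different probe sets of the same gene had a pooled SD of 0.32 over 5460 genes, and the ratios of the 10703 genes that exceeded the floor on each array also had an SD of 0.32. Phc2 itself gave 3184 and 4079 with 1 of its probe sets (log2 ratio 0.36) and 3145 and 3103 with the other (-0.02), which checks nothing about the labels, since the change is missense. All 14 fibroblast markers with a probe set were measured on these arrays, with Vim at 30907 and 41327 and Col1a1 at 16448 and 21724.

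Of the 10 Notch genes, 8 were measured, all of them above the floor on both arrays, and Notch4 and Hey2 lay below it on both. Of the 8, 6 had a higher and 2 a lower signal in Phc2 L307R, with log2 ratios from -0.15 to 0.77 and a median of 0.20, where all 11408 measured genes had a median of 0.06 and 59.1% of them were above 0. None differed 2-fold, higher or lower, a size reached by 0.579% of measured genes upward and 0.535% downward (66 and 61 genes; 38.5% of such genes are higher, in place of 52.0%, once ratios are centred on the median). At 1.5-fold, 1 of the 8, Jag2, was higher and none was lower, where 4.19% of measured genes were higher and 3.25% lower. Of the 8 ratios, 6 were smaller in size than the SD of 0.32 across genes. In RNA from a whole culture, fewer cells of a type and less RNA per cell cannot be told apart.

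**Figure D1:**
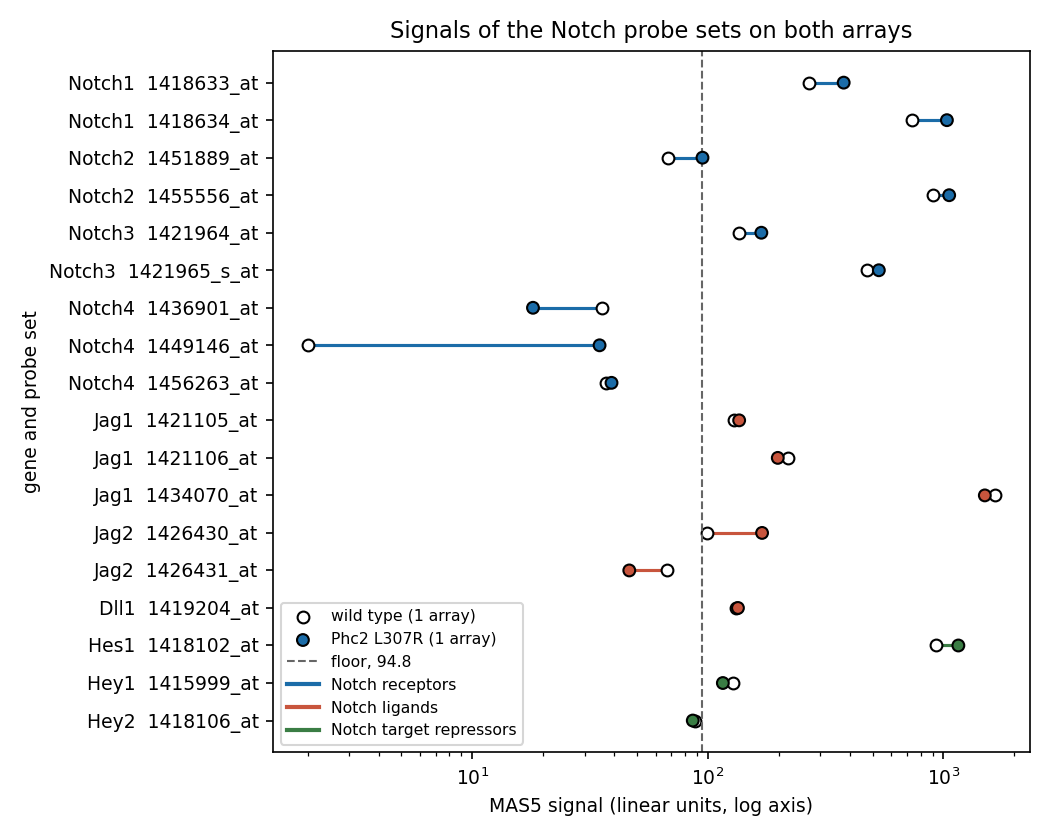
MAS5 signal of each of the 18 Notch probe sets on a log axis, 1 row per probe set; open circles are the wild-type array, filled circles the Phc2 L307R array, coloured by role, and the dashed line is the floor of 94.8. Both Notch1 probe sets shift to the right by about the same distance, Jag1 and Dll1 circles nearly overlap, and the 3 Notch4 probe sets, 1 of Jag2 and that of Hey2 lie left of the floor on both arrays.

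Among the receptors, Notch1 differed most. Notch1 is the receptor of broadest use in development. Its probe set 1418634_at had a signal of 735.7 in the wild-type culture against 1035, a log2 ratio of 0.49 or 1.41-fold higher. Its other probe set, 1418633_at, had signals of 269.7 and 377.2, a log2 ratio of 0.48. The 2 ratios differ by 0.01, far less than the 0.32 by which probe sets of a gene usually scatter. That agreement covers hybridisation to separate probes of the same 2 RNA samples, not the spread between cultures. Among the 2385 genes above the floor with a mean signal within 0.5 log2 units of that of Notch1, 5.20% had a ratio at least as high. Notch1 remained under 1.5-fold.

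Notch2, the close relative of Notch1 that is also known from bone-forming and bone-resorbing cells, had signals of 902.4 and 1058 at 1455556_at, a log2 ratio of 0.23. At its dimmer probe set, 1451889_at, the signals were 67.9 and 94.9. The first is below the floor and the second just above it, so the log2 ratio is bounded only as at least 0.00; averaged in as it stands, it brings Notch2 to 0.12. Of 2307 genes of like signal, 25.9% had a ratio at least as high as the 0.23 of Notch2.

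Notch3 is the receptor best known from vascular smooth muscle and pericytes. Its signals were 472.9 and 531.9 at 1421965_s_at, a log2 ratio of 0.17, and 135.8 and 168.7 at 1421964_at, a log2 ratio of 0.31. Both probe sets were higher in Phc2 L307R, and the 0.14 between them is close to the size of the difference itself. The 5 receptor probe sets above the floor on both arrays were higher in Phc2 L307R, by 0.17 to 0.49. They read 3 genes in the same 2 RNA samples, and the dimmer Notch2 probe set gave only a bound of at least 0.00. The 3 measured receptors had a median of 0.23. All measured genes had a median of 0.06, and 59.1% of them were above 0.

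Notch4, the receptor of endothelial cells, was below the floor at all 3 of its probe sets. Their signals were 35.4 and 18.1 at 1436901_at, 2 and 34.7 at 1449146_at, and 37 and 39 at 1456263_at. The probe sets do not share a direction, and no ratio is given for values under the floor. Of 14 endothelial markers 6 were measured, with a median log2 ratio of 0.06. Only 1 passed 1.5-fold, Emcn, which was lower with 210.8 and 94.9 (-1.15), the second signal barely above the floor. Flt1 was higher (0.42), as was Tek (at least 0.44, below the floor in wild type), and Eng was lower (-0.11). Pecam1, Cdh5, Tie1, Vwf, Cldn5, Esam, Robo4 and Sox17 lay below the floor on both arrays, and the signals of the list summed to 3015 and 3224.

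**Figure D2:**
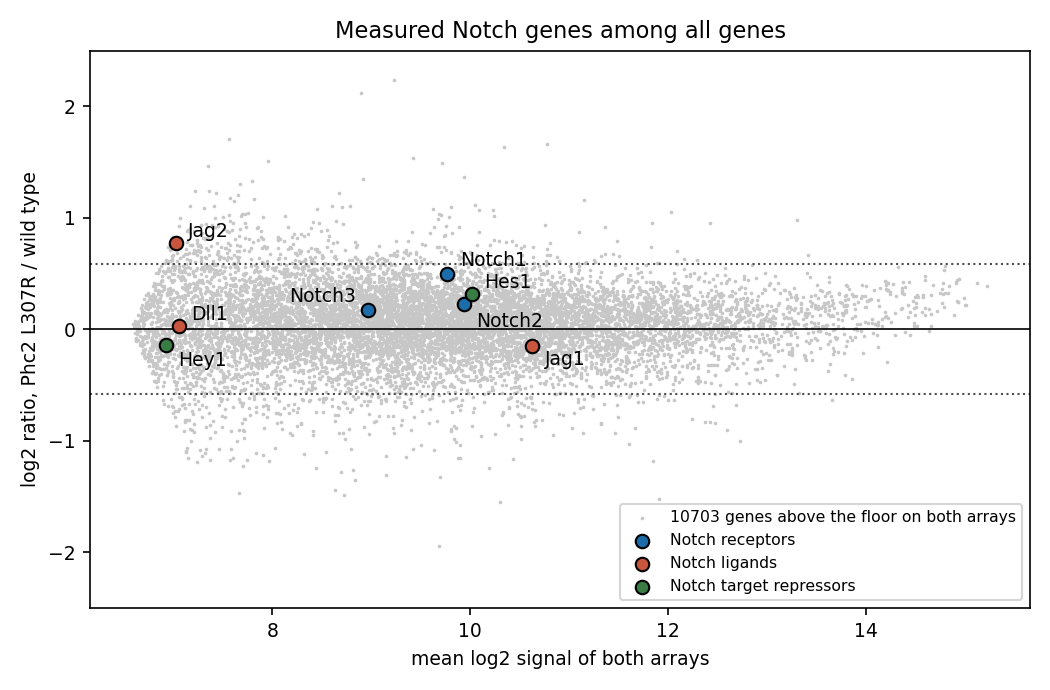
Log2 ratio of Phc2 L307R over wild type (vertical) against the mean log2 signal of both arrays (horizontal) for the 10703 genes that exceeded the floor on each array (grey points; 2 lie outside the axis limits of -2.5 and 2.5), with the 8 measured Notch genes coloured by role; dotted lines mark 1.5-fold. Jag2 is the only Notch gene past a dotted line, and it lies at the dim left edge, where the grey points spread most.

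The ligands did not share a direction. Jag1, the main Jagged ligand of mesenchyme and vessel walls, had signals of 1661 and 1499 at 1434070_at, a log2 ratio of -0.15. At 1421106_at the signals were 218.4 and 198.1 (-0.14), and at 1421105_at they were 128.8 and 135.8 (0.08). The 3 probe sets had a mean of -0.07 with an SD of 0.13, so they do not settle a direction for Jag1.

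Jag2, the second Jagged ligand, known from limb and craniofacial development, had the largest ratio of the 10 genes. Its signals at 1426430_at were 99.3 and 169.9, a log2 ratio of 0.77 or 1.71-fold higher. The wild-type signal lies just above the floor. Ratios scatter more among such dim genes: the 1200 genes of like signal had an SD of 0.39, 8.17% of them were at least 1.5-fold higher, and 3% had a ratio at least as high as that of Jag2. Those genes had to exceed the floor on both arrays, which caps the ratio a dim gene can show. These values may therefore understate the scatter at such signals. The other probe set of Jag2, 1426431_at, had signals of 67 and 46.4, both below the floor and in the opposite order. The ratio of Jag2 thus rests on 1 probe set and was 0.45, under 1.5-fold, with the floor's value added to both signals as a pseudocount; with a floor at the 60th percentile of signals (176.2) Jag2 was not measured.

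Dll1, a Delta ligand of somites and neural progenitors, had signals of 131.8 and 134.2 at its only probe set, 1419204_at. The log2 ratio of 0.03 is within the scatter of dim genes, and it was -0.04 with ratios centred on the median of measured genes.

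Of the target genes, Hes1 was the only one well above the floor. Hes1 is a bHLH repressor and the classical direct target of Notch, although other pathways also switch it on. Its signals at 1418102_at were 928.9 and 1157, a log2 ratio of 0.32 or 1.25-fold higher. The difference is about the SD between probe sets of a gene, and 15.1% of 2299 genes of like signal had a ratio at least as high.

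Hey1, a related repressor that acts in vessels, heart and bone, had signals of 127.5 and 115.8 at 1415999_at, a log2 ratio of -0.14. Among 1060 genes of like signal, the SD was 0.39, so this ratio lies inside their scatter. Hey2, which is best known from heart and arteries, had signals of 88.4 and 86.3 at 1418106_at, both just below the floor. The 3 targets each have 1 probe set, so no second reading of the same RNA exists for any of them, and the measured pair, Hes1 and Hey1, pointed in opposite directions.

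The other genes of the pathway were set out in 6 lists by role, 87 genes in all, of which 81 had a probe set of their own and 69 were measured. Of the 69, 50 (72.5%) were higher and 19 lower, where 59.1% of all measured genes were higher. The median log2 ratio of the 69 was 0.11, against 0.06 for all measured genes. None of the 69 differed 2-fold. At 1.5-fold, 4 (5.80%) were higher and 1 (1.45%) lower, against 4.19% and 3.25% of all measured genes.

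Other ligands and ligand-like proteins had the highest median, 0.48, with all 6 measured of 10 genes higher at their brightest probe set and 2 of them past 1.5-fold. Among the 6, Dner, named after its values were seen, had 441.4 and 555 (log2 ratio 0.33). Its other probe set, of similar signal, went the other way with 428.6 and 314.6 (-0.45). With probe sets averaged, the median of the list was 0.39. Of all measured genes 59.1% were higher. Mfap5, a microfibril protein reported to bind Notch and Jagged, had signals of 578.3 and 1150 (log2 ratio 0.99), and 217.6 and 333.1 (0.61) at its second probe set. Dlk2, a membrane protein resembling Delta, had 74.5 and 174.4 at its brighter probe set, at least 1.84-fold higher, and passed the floor there only through Phc2 L307R. Its other probe set went from 103.4 to 85.7, a log2 ratio of -0.13 or lower. Named after their values were seen, the microfibril protein Mfap2 had a log2 ratio of 0.57 and Dlk1, the imprinted relative of Delta, 0.39, with signals of 7240 and 9512. Mfap2 and Mfap5 are also genes of the fibroblast matrix. The fibroblast marker list had a median log2 ratio of 0.36 and sums of 146154 and 189546 for its signals. In that list S100a4 and Pdgfra were lower, at -0.12 each. Any link between the fibroblast markers and the values of Mfap2 and Mfap5 was not tested. The classical ligands outside the 3 above, Dll3 and Dll4, named after their values were seen, did not reach the floor at any probe set.

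The other targets and feedback genes had a median of 0.03 over 8 measured of 13, with 4 higher, 4 lower and none past 1.5-fold. The largest differences were in Dtx1, a Deltex ubiquitin ligase, with signals of 115.2 and 94.3 (log2 ratio -0.28 or lower), and in Dtx2, with 370.1 and 436.6 (0.24), whose second probe set gave -0.04. Heyl, another Hey repressor, had 180.3 and 170.5 (-0.08). Nrarp, a feedback inhibitor that Notch switches on, and Hes5 lay below the floor at every probe set. Heyl, Nrarp and Hes5 were named after their values were seen.

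In the nuclear complex and its co-regulators, 22 of 24 genes were measured, 13 higher and 9 lower, with a median of 0.05. Tle2, a Groucho co-repressor that Hes proteins recruit, had 126.7 and 241.4 (log2 ratio 0.93, 1 probe set). Its wild-type signal was about as dim as that of Hey1, whose genes of like signal had an SD of 0.39. Ctbp2, a co-repressor, was lower at both probe sets, with 3489 and 2314 (-0.59) and with 2462 and 1757 (-0.49). Rbpj, the DNA-binding partner of all 4 receptors and named after its values were seen, had log2 ratios of -0.01, 0.34 and -0.15 at its 3 probe sets, which do not share a direction.

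**Figure D3:**
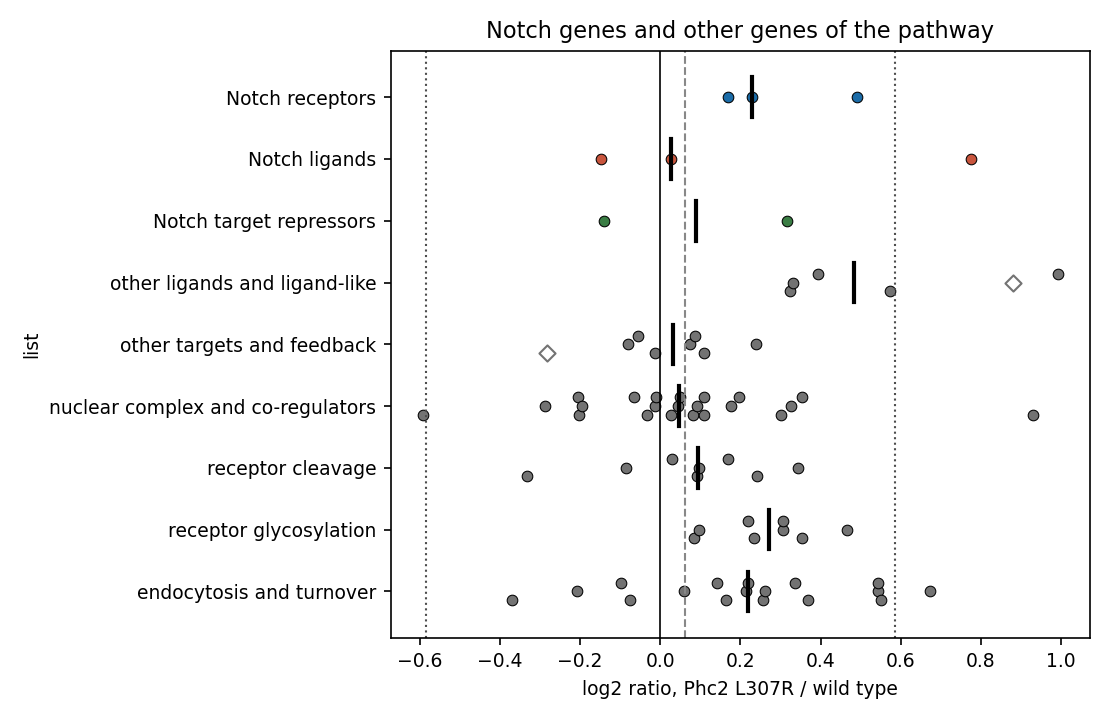
Log2 ratio of Phc2 L307R over wild type for each measured gene, 1 row per list; filled circles are genes above the floor on both arrays, open diamonds are bounds, black bars are list medians, dotted lines mark 1.5-fold and the dashed line is the median of all measured genes, 0.06. The other ligands lie furthest to the right, with a median of 0.48, and the other targets and the nuclear complex centre near 0, with medians of 0.03 and 0.05.

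Genes that cut the receptor had a median of 0.09 over 8 measured genes, with none past 1.5-fold. Adam10, the protease of the cut that ligand binding triggers, gave log2 ratios of -0.33, 0.74 and 0.00 at 3 probe sets above the floor, so its direction depends on the probe set. Psenen, a subunit of gamma-secretase, had 3697 and 4695 (0.34). Glycosyltransferases that modify the receptors' extracellular repeats were higher in 8 of 8 measured genes, with a median of 0.27, a range of 0.08 to 0.47 and none past 1.5-fold. Gxylt2, which adds xylose, had 899.5 and 1243 (0.47), and Eogt had 1065 and 1360 (0.35), while its other probe sets gave -0.32 and 0.10. Of the 17 genes of endocytosis and turnover, all measured, 13 were higher at their brightest probe set, with a median of 0.22. For some of them, Mib1 and Dnm2 included, probe sets above the floor did not share a direction. Both were named after their values were seen. Beside these lists, 59.1% of all measured genes were higher, with a median of 0.06. Epn1, an epsin that ligand endocytosis needs, was past 1.5-fold with 554.9 and 884.3 (0.67).

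Markers of other cell types that the cultures could hold were read on the same arrays, and their part in the Notch values was not tested. Of 12 chondrocyte markers 11 were measured, and 8 reached 1.5-fold upward, a size that 4.19% of all measured genes reached. Sox9 was lower, with 295.9 and 241.5 (-0.29), and only Chad was below the floor on both arrays. The summed signals were 6252 and 9706, of which Col2a1, under 1.5-fold, gave 4037 and 5685. Of the 8, Matn1 (90.4 and 291) and Cnmd (87.5 and 306.5) passed the floor only through Phc2 L307R. Of 8 osteoblast markers 5 had a probe set of their own, Runx2, Bglap and Spp1 not among them, and 4 were measured. Phex was below the floor. At 1.5-fold, 3 were higher: Ibsp (228.8 and 997.6), Dlx5 (131.2 and 291) and Alpl (108.6 and 179.1). Sp7 was higher by at least 0.50, below the floor in wild type. The sums were 587.9 and 1640, and Ibsp gave most of the difference. Of 14 markers of smooth muscle and pericytes 13 were measured, with a median of 0.06 and sums of 57708 and 69801. Kcnj8 was below the floor. The list did not share a direction. By 1.5-fold, 1 was higher, Myh11 (0.71), and 1 lower, Rgs5 (-0.64). Below that size, Lmod1 and Tagln were among the higher ones (0.46 and 0.42). Mcam and Pdgfrb were among the lower ones (-0.45 and -0.34). Of 12 macrophage markers 5 were measured, Ptprc, C1qa and C1qb not among them, with a median of 0.57 and sums of 911.8 and 1247. Laptm5 was past 1.5-fold (1.00), Csf1r, Lyz2 and Adgre1 were at 0.57, 0.57 and 0.55, and Cd68 was at -0.11. Skeletal muscle markers (8 of 12 measured, sums of 19470 and 20268), neural and glial markers (7 of 10, sums of 3532 and 3693) and epithelial markers (4 of 10, sums of 2508 and 2520) had medians of -0.05, -0.06 and -0.13. Past 1.5-fold in these lists were Nes, higher at 0.60, and Map2, lower at -1.31, both neural markers.

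**Figure D4:**
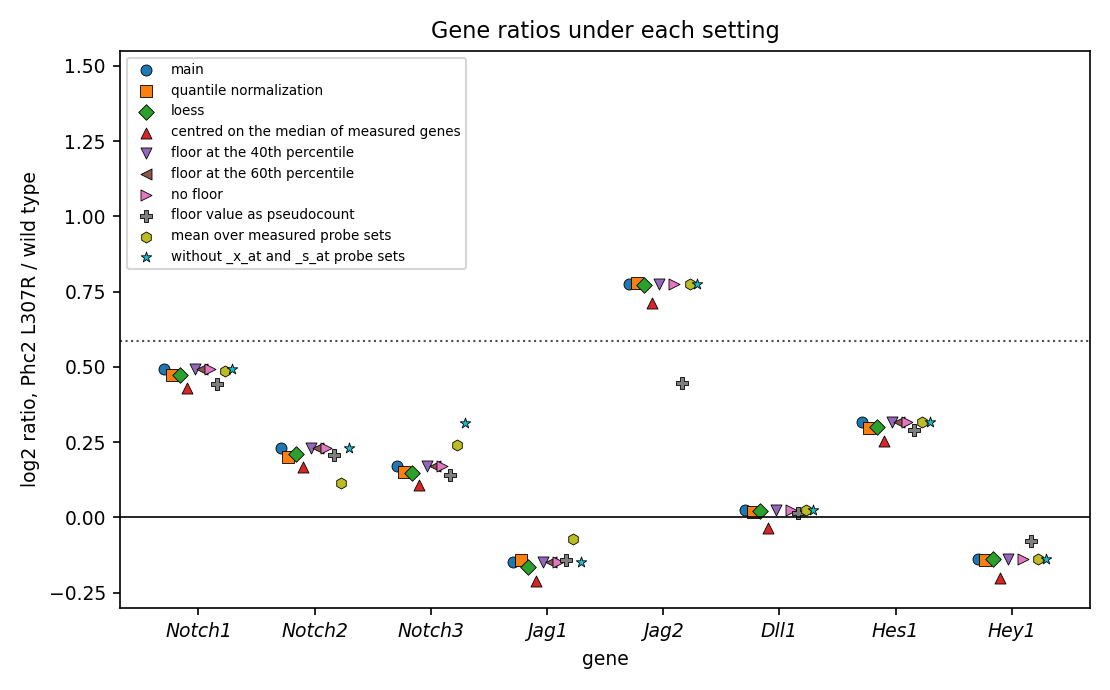
Log2 ratio of Phc2 L307R over wild type (vertical) for each of the 8 measured Notch genes (horizontal), with 1 symbol for the value as reported ("main") and 1 for each of 9 other ways of scaling, flooring or summarising; the dotted line marks 1.5-fold. Jag2 drops from 0.77 to 0.45 with the pseudocount, Dll1 crosses 0 with centred ratios, and the other 6 genes keep their sign.

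The measured Notch genes kept their sign under all 9 alternative settings that could give them a value, apart from Dll1 with centred ratios. Moving or dropping the floor could not change these ratios, because genes with a value lay above it on both arrays. Averaging probe sets could alter only Notch1, Notch2, Notch3 and Jag1, and removing _x_at and _s_at probe sets only Notch3. Notch1 ranged from 0.43 to 0.49, Hes1 from 0.25 to 0.32, Notch2 from 0.12 to 0.23 and Notch3 from 0.11 to 0.31. Jag1 ranged from -0.21 to -0.07 and Hey1 from -0.20 to -0.08. The settings share the same 2 arrays, so these ranges say nothing about other cultures.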

How the data were processed

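The values deposited by the authors are signal intensities on a linear scale, 45101 probe sets by 2 arrays (wild type and Phc2 L307R). Per the submitters' processing notes these came from Affymetrix Expression Console and MAS5; versions, the scaling step and a genome build are not given in the sources used here. Mean signal, after trimming 2% from either tail, was 500.0 on both arrays. No detection calls or scanner files were used here.

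The 64 control probe sets were left out. The platform annotation gives 1 gene symbol to 34945 of the rest, several to 932 and none to 9160. A RefSeq table of GRCm38.p6 brought symbols up to date, with 34741 matches. The probe set brightest on average over both arrays stood for its gene. Ratios are log2 of Phc2 L307R over wild type after the floor. The threshold sizes were 1.5-fold and 2-fold, with 3-fold as an alternative. Genes of like signal were those above the floor on both arrays within 0.5 log2 units. With 1 array per genotype there was no test. The number of arrays limits the precision.

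The alternatives were quantile normalization, a loess (span 0.4, 3 iterations), ratios centred on the measured genes' median, a floor moved to the 40th or the 60th percentile, low signals not raised to the floor (with the same measured genes), its value as a pseudocount, the mean over measured probe sets, and removal of _x_at and _s_at probe sets, which can bind several transcripts. Calculations were tested on simulated arrays. The changes planted there were larger than any Notch ratio reported, in genes brighter than Jag2, Dll1 and Hey1. Recovery of ratios as small as those reported was not tested. Named genes were the 10 Notch genes, Phc2 and, of each other list, every measured gene past 1.5-fold or otherwise the 2 of largest absolute ratio. The genes and lists were chosen with earlier results of these data known. Promoters came from RefSeq. Python 3.11.15, pandas 2.3.3, numpy 2.4.6, statsmodels 0.14.6 and matplotlib 3.10.9 were used.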

Additional observations from a re-analysis of the deposited data

How the results depend on the processing

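No paired analysis was possible because each genotype has 1 array. For the same reason no array could be left out. The count of Notch genes at least 1.5-fold higher went from 1 to 0 when the floor was the 60th percentile, which leaves 5 of the 10 measured (Notch1, Notch2, Notch3, Jag1 and Hes1), and with the floor's value as a pseudocount. Over all genes, the counts at least 2-fold higher and lower, 66 and 61, were 127 and 90 once the floor was the 40th percentile, 27 and 35 at the 60th, 159 and 122 when low signals were not raised to the floor but the same genes were counted, 26 and 22 with the pseudocount, and 8 and 6 at a threshold of 3-fold. With the lower floor, Hey2 was measured as well, and 9 of the 10 genes had a value. A ratio or median was taken as moved when it shifted by more than the SD between probe sets of a gene, 0.32, and a count when it changed by over 1.5 times. By these measures 212 of 224 comparisons with the reported values stayed close, and 12 moved, 11 of them counts and 1 a ratio (Jag2, from 0.77 to 0.45 with the pseudocount). Most ratios and medians were themselves below 0.32, so they could change sign and still count as close. Dll1 did so, as did the medians of the ligands, the targets, the other targets and the nuclear complex. Ratios that a setting could not alter, such as those of bright genes under another floor, also count as close. The count of Notch genes above 0, which was 6, was 5 with centred ratios and 4 at the 60th percentile. Only 1 of the ratios and medians compared, that of Jag2, was past 1.5-fold, and it did not change sign. The median of the 3 ligands ranged from -0.15 to 0.03, that of the targets from -0.03 to 0.32, that of the receptors from 0.17 to 0.31 and that of all measured Notch genes from 0.14 to 0.27; at the 60th percentile the ligands are Jag1 alone and the targets Hes1 alone. Dim signals limit Jag2, Dll1, Hey1 and Hey2, whose signals at their brightest probe set lay between 86.3 and 169.9 against a floor of 94.8.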
